A study of Rattus norvegicus with 16 samples.

Results

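The satellite cell and myogenic factors described here are 9 genes, Pax7, Myod1, Myf5, Myf6, Myog, Met, Cdh15, Ncam1 and Chrna1, followed in rat soleus through every array probe set whose only gene symbol in the platform annotation is one of them. Of the 9 genes, 7 had a probe set, and these 7 held 9 of the 31042 probe sets tested, 3 of them for Ncam1. Pax7 and Myf5 had no probe set in the annotation used here and are not analysed. The label of satellite cell genes therefore rested on Cdh15, Ncam1 and Met, and the Met probe set was dim on all 16 arrays, under a level of 5.61 that marks the 40th percentile of the table.

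The groups were HCR trained, HCR sedentary, LCR trained and LCR sedentary, each of 4 female rats with 1 Affymetrix array per rat. HCR and LCR name lines bred from the N:NIH stock for high and for low treadmill capacity, tested at 11 weeks of age, and all rats came from generation 16. Trained rats ran up an incline of 25 degrees on 5 days per week for 8 weeks, in sessions of 1.5 h that alternated 8 min at 85 to 90% of maximal oxygen uptake with 2 min of active recovery. Sedentary rats were of matched age and had neither training nor oxygen uptake tests. All were killed at about 7 months, 48 h after the last session in trained rats, and RNA came from 20 mg of whole soleus. A level on these arrays is therefore a sum over myofibres, satellite cells and all other cells of the muscle, and fewer cells of a type and less RNA per cell cannot be told apart. The comparisons address how the lines differ in each training state, how each line differs with training, and whether those differences depend on the line.

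Satellite cells are the stem cells of skeletal muscle and lie between a myofibre and its basal lamina. Quiescent cells carry Pax7, activated cells turn on Myod1, and cells that differentiate and fuse turn on Myog, while Myf6 is abundant in the nuclei of adult fibres. Myf5, MyoD, myogenin and Mrf4 are basic helix-loop-helix proteins that pair with E proteins and bind E-boxes, a motif found in many muscle genes. In adult rodent muscle Myod1 transcripts are known to be more abundant in fast muscles and Myog transcripts in slow ones, and Myog, Chrna1 and Ncam1 are known to rise in fibres that lose their nerve.

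All values are log2 expression, and differences are log2 differences from a limma fit of the 4 group means, with Benjamini-Hochberg adjustment over all 31042 probe sets. Array medians lay between 5.90 and 5.98, and pairs of arrays correlated between 0.941 and 0.996. On the array HCR trained 3 the fibre type transcripts went against those of a soleus, a mainly slow muscle. The mean of 10 slow fibre genes, each centred over the arrays, was -2.40 there and 0.01 to 0.27 on the other 15 arrays, and the mean of 11 fast fibre genes was 2.26 there and -0.94 to 0.99 on the others. Tnnt1, slow troponin T, read 10.19 on that array and 13.58 to 14.13 on the others. The mean of the 10 fibroblast and matrix markers was 1.67 on the array HCR sedentary 2 and 1.13 on LCR trained 2, against -0.74 to 0.47 on the other 14. Whether HCR trained 3 held soleus alone cannot be settled from the files, and every mean, SD and difference of HCR trained rats includes it unless its omission is stated. Values without 1 or more of HCR trained 3, HCR sedentary 2 and LCR trained 2 are given beside results that moved when they were left out. The array HCR trained 2 had the highest 3' bias of both control transcripts. Its GAPDH index was 1.67, against 0.48 to 0.77 on the other 15 arrays. Its beta-actin index was 2.37, against 0.38 to 2.07 on the others. Fits without HCR trained 2 are among those that left out 1 array each.

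No member differed between groups in limma's test at an adjusted p of 0.05. Between trained rats of the lines 0 of the 9 probe sets passed, where 0.374% of all probe sets did. In sedentary rats of the lines 0 of 9 passed, where 0.00966% did. For training in HCR rats 0 of 9 passed, where 0.187% did, and for training in LCR rats 0 of 9 passed, where 0.00322% did. For the line by training interaction 0 of 9 passed, where 0% did. Averaged over training states, 0 of 9 differed between the lines, where 0.087% did, and averaged over lines 0 of 9 differed with training, where 0.00644% did. With so few calls in the whole table, the counts of 0 are no result about the members.

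At an unadjusted p under 0.05, 4 of 9 member probe sets differed between HCR trained and LCR trained rats, beside 19.7% of all probe sets, and 3 of 9 between HCR trained and HCR sedentary rats, beside 17.7%. They were Myog, Cdh15 and Chrna1 in both comparisons and Myf6 in the first, and both comparisons use the same 4 HCR trained arrays. Between HCR sedentary and LCR sedentary rats the number was 0 of 9, beside 8.37%, and between LCR trained and LCR sedentary rats it was 0 of 9, beside 9.76%. In the interaction it was 2 of 9, Myog and Cdh15, beside 18.3%. Averaged over training states 1 of 9 differed between the lines, Cdh15, beside 10.4%, and averaged over lines 2 of 9 differed with training, Cdh15 and Ncam1 1377368_at, beside 9.55%. The median difference of the 7 genes, each by its brightest probe set, was -0.36 between HCR trained and LCR trained rats and -0.19 between HCR trained and HCR sedentary rats, beside medians of 0.05 and 0.02 over 14217 genes. Between HCR trained and HCR sedentary rats the members' median was -0.32 without HCR trained 3 and -0.11 without HCR sedentary 2. The medians were 0.12 between HCR sedentary and LCR sedentary rats, beside -0.003 over all genes, and 0.09 between LCR trained and LCR sedentary rats, beside -0.03.

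The promoters of Myog, Chrna1 and Cdh15 are shown because these 3 genes had the unadjusted differences in both comparisons with HCR trained rats. The sequences are RefSeq's, build GRCr8, from 250 bases before to 50 bases after the annotated start, written 5′ to 3′ on the gene's strand, at chr13:48297226-48297525 (+) for Myog, chr3:78877304-78877603 (-) for Chrna1 and chr19:67814407-67814706 (+) for Cdh15. Capitals mark E-boxes, searched as CANNTG, which reads the same on both strands.
Myog: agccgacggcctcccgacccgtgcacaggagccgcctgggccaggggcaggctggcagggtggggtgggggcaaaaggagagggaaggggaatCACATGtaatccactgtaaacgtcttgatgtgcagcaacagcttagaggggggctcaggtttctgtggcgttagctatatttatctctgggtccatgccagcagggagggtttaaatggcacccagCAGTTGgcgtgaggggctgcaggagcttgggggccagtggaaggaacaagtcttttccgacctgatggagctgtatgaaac
Chrna1: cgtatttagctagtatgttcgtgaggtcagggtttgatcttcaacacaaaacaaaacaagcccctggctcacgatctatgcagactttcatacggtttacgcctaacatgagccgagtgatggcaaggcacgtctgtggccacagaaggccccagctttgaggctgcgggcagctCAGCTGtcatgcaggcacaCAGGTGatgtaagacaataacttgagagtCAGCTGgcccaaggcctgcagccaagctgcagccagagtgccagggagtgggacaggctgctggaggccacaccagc
Cdh15: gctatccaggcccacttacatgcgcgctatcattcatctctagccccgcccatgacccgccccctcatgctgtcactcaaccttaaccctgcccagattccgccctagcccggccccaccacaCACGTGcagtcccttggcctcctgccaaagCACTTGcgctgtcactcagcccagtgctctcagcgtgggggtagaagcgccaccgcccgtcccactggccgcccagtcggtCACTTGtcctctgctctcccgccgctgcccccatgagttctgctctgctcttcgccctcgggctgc
The Myog window held 2 E-boxes, a number that 38.6% of the 33469 promoters of this length reach or exceed. The Chrna1 and Cdh15 windows held 3 each, reached or exceeded by 16.6%. Chrna1 carried the letters CAGCTG at both ends of its run of E-boxes and CAGGTG between them, Cdh15 carried CACGTG followed by CACTTG at the next 2, and Myog carried CACATG and CAGTTG. Of all promoters 72.1% held at least 1 such motif, and a match of letters is no evidence of binding. Promoters were at hand for 7 of the 9 genes, Pax7 and Myf5 among them, and those for Myod1 and Ncam1 were not used here.

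Among the myogenic regulatory factors, Myod1 encodes MyoD, the factor of activated satellite cells. It read 6.31, 7.15, 9.72 and 5.67 in HCR trained rats, 6.37, 7.11, 7.49 and 7.12 in HCR sedentary rats, 7.09, 5.88, 8.01 and 6.33 in LCR trained rats, and 6.39, 6.99, 6.53 and 7.17 in LCR sedentary rats. The array HCR trained 3 was the highest of the 16 and HCR trained 4 the lowest, and all groups overlapped. The difference was 0.38 (SE 0.67, adjusted p = 0.776) between HCR trained and LCR trained rats and 0.19 (SE 0.67, adjusted p = 0.919) between HCR trained and HCR sedentary rats. Without HCR trained 3 both turned, to -0.45 (SE 0.45, adjusted p = 0.629) and -0.65 (SE 0.45, adjusted p = 0.427). Without LCR trained 2 the first was 0.07 (SE 0.72, adjusted p = 0.979).

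Myog encodes myogenin, the factor of differentiating myoblasts. It read 9.61, 9.53, 7.57 and 9.98 in HCR trained rats, 10.32, 10.60, 9.85 and 10.03 in HCR sedentary rats, 9.83, 10.44, 10.58 and 10.00 in LCR trained rats, and 9.91, 9.94, 9.82 and 10.14 in LCR sedentary rats. The value on HCR trained 3 was the lowest of all, the next 2 arrays from the bottom were also HCR trained, and HCR trained 4 lay among the other groups. The difference was -1.04 (SE 0.39, adjusted p = 0.157) between HCR trained and LCR trained rats and -1.03 (SE 0.39, adjusted p = 0.189) between HCR trained and HCR sedentary rats. Without HCR trained 3 they were -0.51 (SE 0.20, adjusted p = 0.164) and -0.50 (SE 0.20, adjusted p = 0.174). In LCR rats training gave 0.26 (SE 0.39, adjusted p = 0.848), and the interaction was -1.29 (SE 0.54, adjusted p = 0.227), or -0.76 (SE 0.27, adjusted p = 0.141) without HCR trained 3.

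Myf6 encodes Mrf4, the factor of adult myonuclei. It read 10.97, 11.04, 10.87 and 11.16 in HCR trained rats, 11.12, 11.58, 10.98 and 11.12 in HCR sedentary rats, 11.29, 11.64, 11.33 and 11.22 in LCR trained rats, and 11.20, 11.18, 11.08 and 11.38 in LCR sedentary rats. Every HCR trained array lay below every LCR trained array, and no other pair of groups compared was apart. Groups that did not overlap were seen in 3 of the 9 member probe sets in this comparison, beside 13.6% of all probe sets. The difference was -0.36 (SE 0.12, 95% interval -0.63 to -0.10, adjusted p = 0.133), and -0.31 (adjusted p = 0.199) without HCR trained 3. It was -0.19 (SE 0.12, adjusted p = 0.446) between HCR trained and HCR sedentary rats and -0.06 (adjusted p = 0.850) there without HCR sedentary 2, the array with the highest value of its group. With the 3' bias of the beta-actin control as a covariate the line difference in trained rats was -0.21 (adjusted p = 0.715).

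**Figure D1:**
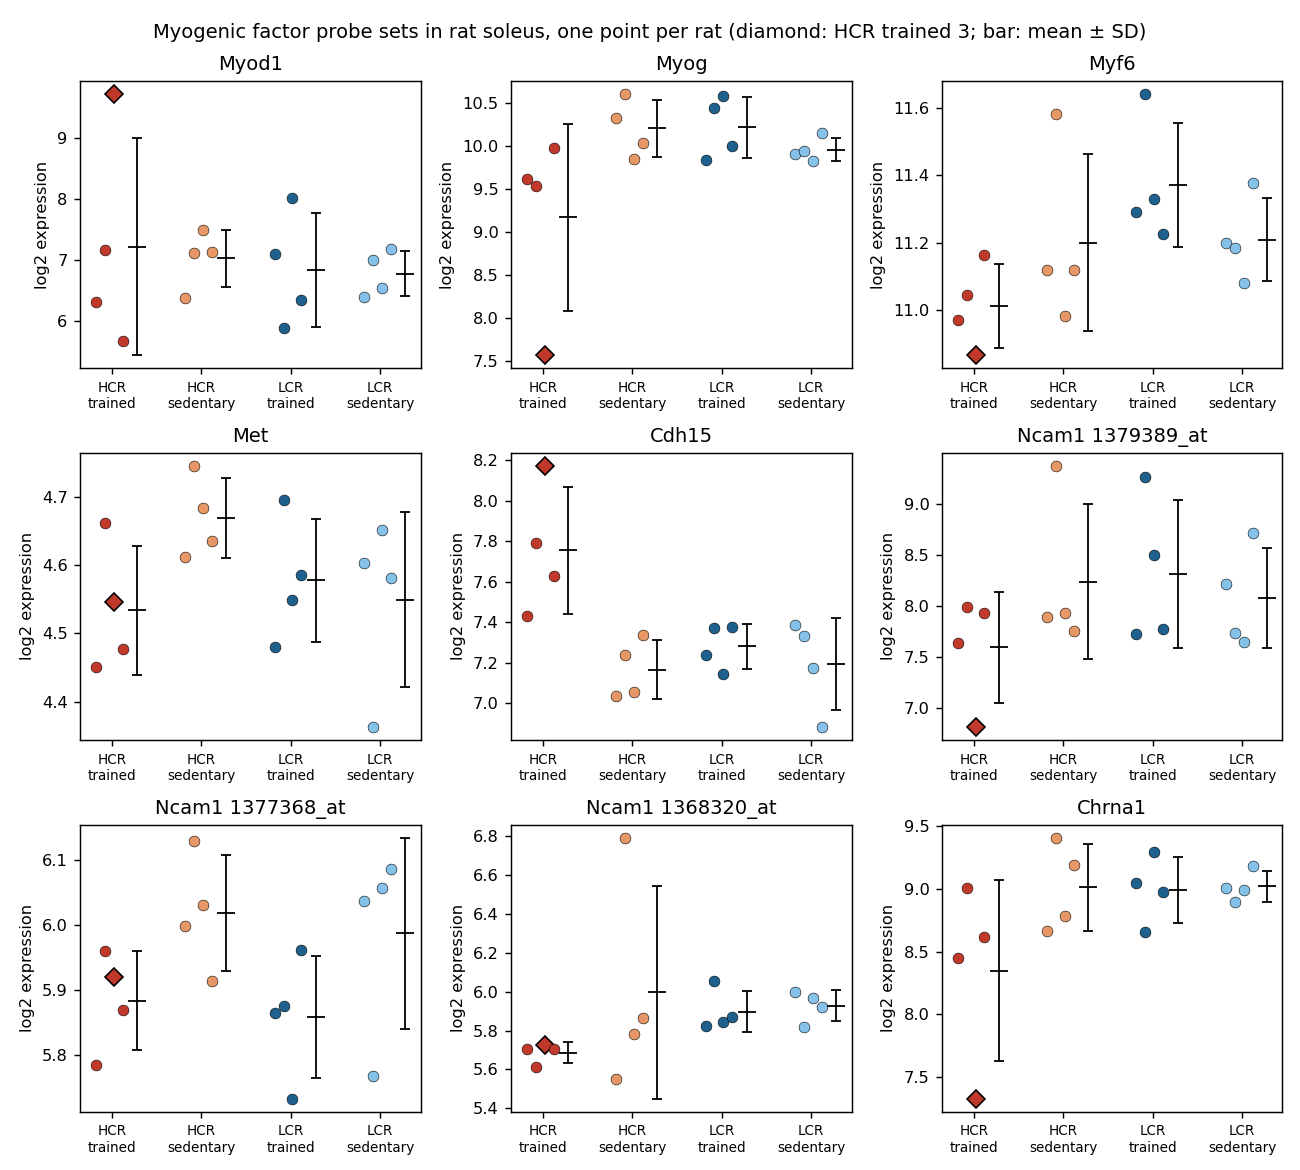
Log2 expression of the 9 probe sets in every rat, with HCR trained, HCR sedentary, LCR trained and LCR sedentary from left to right in each panel; bars give the group mean ± SD (n = 4) and the diamond is the array HCR trained 3. The axes do not start at 0 and differ between panels. In Cdh15 the 4 HCR trained points lie above the other 12, and in Myod1, Myog, Chrna1 and Ncam1 1379389_at the diamond stands apart from the other HCR trained points.

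Cdh15, the surface adhesion protein M-cadherin, which holds satellite cells to their fibre, gave the largest difference relative to its error. It read 7.43, 7.79, 8.17 and 7.63 in HCR trained rats, 7.03, 7.24, 7.05 and 7.34 in HCR sedentary rats, 7.24, 7.37, 7.15 and 7.37 in LCR trained rats, and 7.39, 7.33, 7.17 and 6.88 in LCR sedentary rats. The 4 HCR trained arrays were the 4 highest of the 16, the lowest of them at 7.43 and the highest of the other 12 at 7.39. The 12 other arrays lay between 6.88 and 7.39 with all 3 groups overlapping.

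Between HCR trained and HCR sedentary rats Cdh15 differed by 0.59 (SE 0.14, 95% interval 0.29 to 0.89, adjusted p = 0.0777), a ratio of 1.51. It was the only member whose groups did not overlap there, 1 of 9 probe sets beside 7.61% of all. Between HCR sedentary and LCR sedentary rats 0 of 9 were apart, beside 4.87%, and between LCR trained and LCR sedentary rats 0 of 9, beside 8.5%. Between HCR trained and LCR trained rats it differed by 0.47 (SE 0.14, 95% interval 0.17 to 0.78, adjusted p = 0.103). Without HCR trained 3 the values were 0.45 (SE 0.12, adjusted p = 0.0857) and 0.33 (SE 0.12, adjusted p = 0.148), and over the 16 fits that left out 1 array each they ran from 0.45 to 0.70 and from 0.33 to 0.58. Training gave 0.09 (SE 0.14, adjusted p = 0.860) in LCR rats, and the interaction was 0.50 (SE 0.20, adjusted p = 0.211). With limma's array weights, which give less weight to arrays far from their group, Cdh15 passed in both comparisons. It gave 0.51 (adjusted p = 0.0352) and 0.38 (adjusted p = 0.0384), where 1304 and 3525 of all 31042 probe sets passed. Once the beta-actin index entered the fit as a covariate, the values were 0.54 (adjusted p = 0.590) and 0.43 (adjusted p = 0.569). That index was 1.57 to 2.37 in HCR trained, 0.38 to 1.59 in HCR sedentary, 1.06 to 1.36 in LCR trained and 1.33 to 2.07 in LCR sedentary rats, so it too was higher on every HCR trained than on every LCR trained array.

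Ncam1 is an adhesion molecule of satellite cells, of nerve and Schwann cells, and of fibres without a nerve. Its 3 probe sets did not move alike between HCR trained and LCR trained rats. On its brightest probe set, 1379389_at, it read 7.64, 7.99, 6.81 and 7.93 in HCR trained rats, 7.89, 9.37, 7.93 and 7.76 in HCR sedentary rats, 7.72, 9.26, 8.50 and 7.77 in LCR trained rats, and 8.22, 7.73, 7.65 and 8.71 in LCR sedentary rats. The array HCR trained 3 was the lowest, HCR sedentary 2 and LCR trained 2 were the highest, and all groups overlapped.

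For Ncam1 1379389_at the difference was -0.72 (SE 0.41, adjusted p = 0.347) between HCR trained and LCR trained rats and -0.64 (SE 0.41, adjusted p = 0.437) between HCR trained and HCR sedentary rats. Between HCR trained and LCR trained rats it was -0.46 (SE 0.42, adjusted p = 0.590) without HCR trained 3 and -0.40 (SE 0.40, adjusted p = 0.691) without LCR trained 2. Between HCR trained and HCR sedentary rats it was -0.38 without HCR trained 3, -0.27 without HCR sedentary 2 and -0.01 (SE 0.35, adjusted p = 0.995) without both. The probe set 1377368_at gave 0.03 (SE 0.08, adjusted p = 0.881) between trained rats, and 1368320_at gave -0.21 (SE 0.19, adjusted p = 0.546). Between HCR trained and HCR sedentary rats they gave -0.14 (SE 0.08, adjusted p = 0.385) and -0.31 (SE 0.19, adjusted p = 0.402), the sign of 1379389_at. On 1368320_at the HCR trained arrays, at 5.61 to 5.73, lay below the LCR trained arrays, at 5.82 to 6.06, and both ranges were close to the dim level of 5.61.

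Met, the receptor for hepatocyte growth factor, read 4.45 to 4.66 in HCR trained rats, 4.61 to 4.75 in HCR sedentary rats, 4.48 to 4.70 in LCR trained rats and 4.36 to 4.65 in LCR sedentary rats. All were under the dim level, and the largest of the 4 differences was -0.14 (SE 0.07, adjusted p = 0.349), between HCR trained and HCR sedentary rats.

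Chrna1, the alpha subunit of the muscle acetylcholine receptor and a target of the myogenic factors, read 8.45, 9.01, 7.33 and 8.61 in HCR trained rats, 8.67, 9.41, 8.79 and 9.19 in HCR sedentary rats, 9.05, 8.65, 9.30 and 8.97 in LCR trained rats, and 9.01, 8.90, 8.99 and 9.19 in LCR sedentary rats. HCR trained 3 was again the lowest, and HCR trained 2 lay among the other groups. The difference was -0.64 (SE 0.27, adjusted p = 0.211) between HCR trained and LCR trained rats and -0.66 (SE 0.27, adjusted p = 0.227) between HCR trained and HCR sedentary rats. Without HCR trained 3 the values were -0.30 (adjusted p = 0.387) and -0.32 (adjusted p = 0.329).

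**Figure D2:**
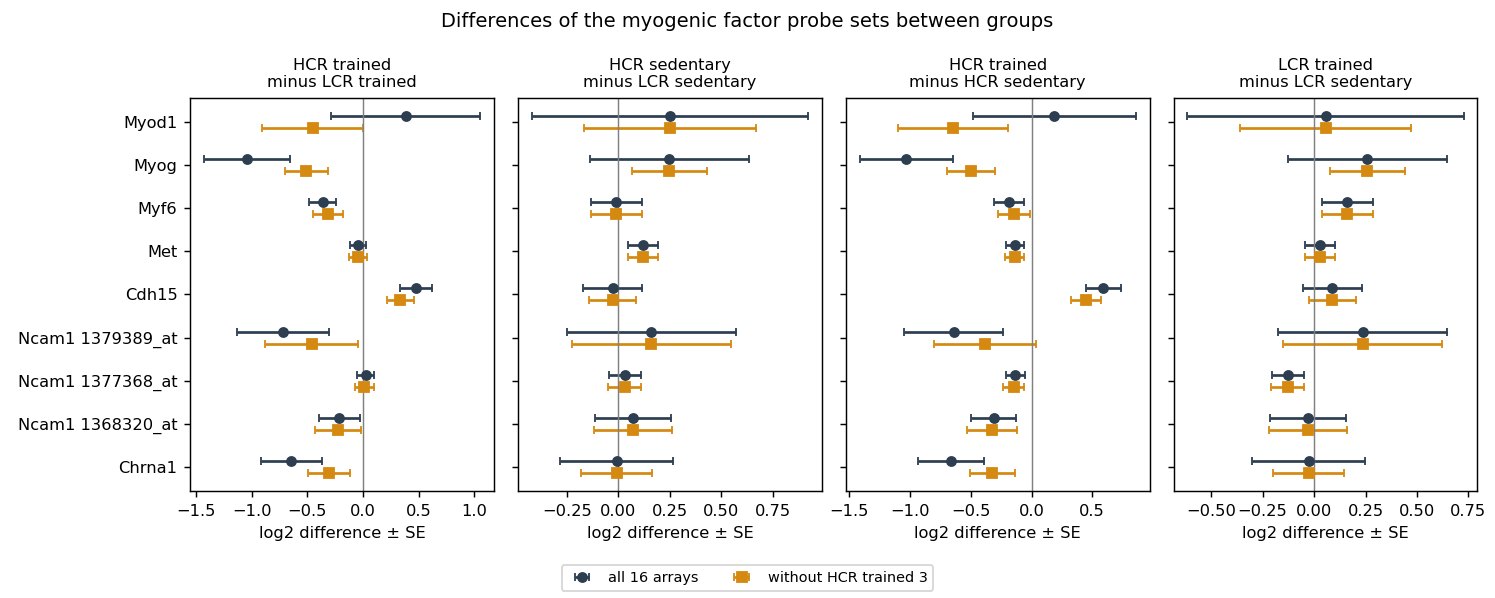
Log2 differences ± SE of the 9 probe sets in the 4 comparisons, from the fit of all 16 arrays (circles) and without HCR trained 3 (squares). In the comparisons of HCR trained rats Cdh15 lies above 0 and Myog, Chrna1 and Ncam1 1379389_at below it in both fits, and Myod1 changes side.

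In the order of group means few neighbours were further apart than the larger of their SDs. For Cdh15 the step between HCR trained at 7.76 ± 0.31 and LCR trained at 7.28 ± 0.11 (SD, n = 4 each) exceeded it, and the remaining means, 7.16 ± 0.15 in HCR sedentary and 7.19 ± 0.23 in LCR sedentary rats, did not differ by more than their spread. For Myog the means were 9.17 ± 1.09 in HCR trained, 10.20 ± 0.33 in HCR sedentary, 10.21 ± 0.36 in LCR trained and 9.95 ± 0.14 in LCR sedentary rats. For Chrna1 they were 8.35 ± 0.72 in HCR trained, 9.01 ± 0.35 in HCR sedentary, 8.99 ± 0.26 in LCR trained and 9.02 ± 0.12 in LCR sedentary rats. No step between neighbours exceeded the spread for Myog, Chrna1, Myf6, Myod1 or Ncam1 1379389_at. The SD of HCR trained rats without HCR trained 3 was 0.24 for Myog and 0.29 for Chrna1.

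The array HCR trained 3 stood at an end of the range in 6 of the 7 genes. It was the highest for Myod1 and Cdh15 and the lowest for Myog, Myf6, Chrna1 and Ncam1 1379389_at. Myod1 stood 3.34 above the mean of the other 3 HCR trained arrays, and the same difference was -2.14 for Myog and -1.36 for Chrna1. The other 15 arrays spanned 5.67 to 8.01 for Myod1, 9.53 to 10.60 for Myog and 8.45 to 9.41 for Chrna1. On the same array the 8 Schwann cell markers measured had a mean of 0.10 and the macrophage and leukocyte markers one of -0.61. The part of these cells in the result was not tested.

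Each of the 7 genes was set against the slow fibre mean, the fast fibre mean, the matrix mean and the beta-actin index over the 16 arrays, 28 relations in all. Pearson's r passed at an adjusted p of 0.05 in 7 of the 28, and Spearman's rho in 0. Cdh15 was higher where the fast fibre mean was higher (r = 0.84, permutation p = 0.00026, adjusted 0.00728; rho = 0.59, permutation p = 0.0165, adjusted 0.252). Its r was 0.72 without the 2 arrays farthest from the median, 0.66 without HCR trained 3 and 0.60 on deviations from the group means. Of the 7 it changed least when the 2 farthest arrays were left out, and the fast fibre mean was itself 0.28 to 2.26 in HCR trained rats and -0.94 to 0.31 in all others. Of the 11 genes in that mean, 6 were higher and 5 lower in HCR trained than in LCR trained rats.

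The other relations with fibre type rested on the 2 arrays farthest from the median, HCR trained 3 among them in each. Myod1 with the slow fibre mean had r = -0.79 (permutation p = 0.00802, adjusted 0.0449; rho = -0.34, adjusted 0.453) and -0.28 without the 2 farthest arrays. Myog with the fast fibre mean had r = -0.80 (permutation p = 0.00554, adjusted 0.0388; rho = -0.46, adjusted 0.305) and -0.19 without them. Cdh15 with the slow fibre mean had r = -0.72 (permutation p = 0.0103, adjusted 0.0456; rho = -0.46, adjusted 0.305) and -0.41 without them. Chrna1 with the fast fibre mean had r = -0.74 (permutation p = 0.0114, adjusted 0.0456; rho = -0.24, adjusted 0.539), and r was 0.09 once the 2 arrays were left out.

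**Figure D3:**
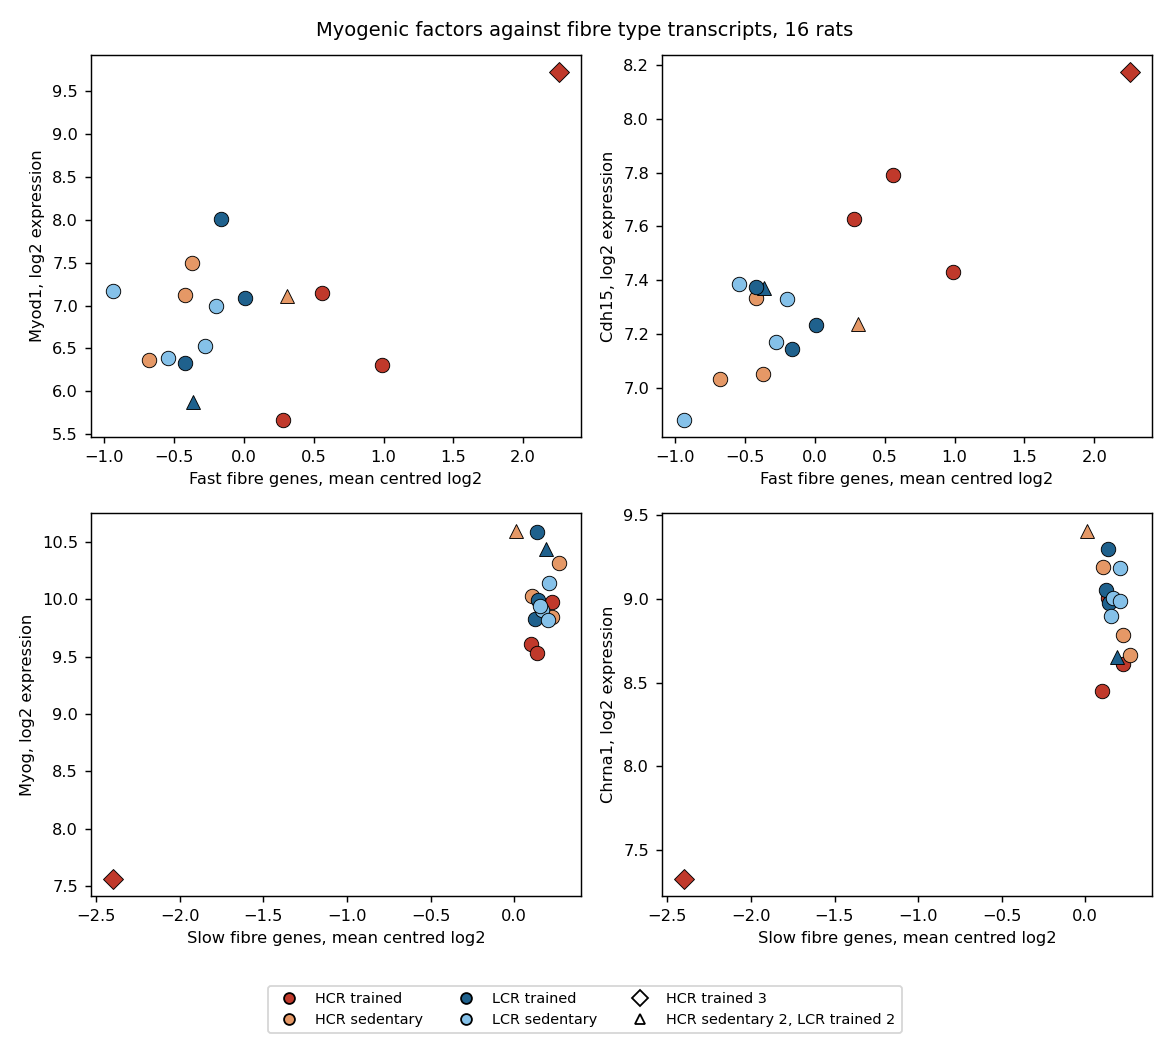
Log2 expression of Myod1 and Cdh15 against the mean of the fast fibre genes (top) and of Myog and Chrna1 against the mean of the slow fibre genes (bottom), each point 1 rat, with fibre means centred over the 16 arrays. The diamond, HCR trained 3, stands alone in every panel at a fast fibre mean of 2.26 and a slow fibre mean of -2.40 (r without it is -0.10 for Myod1, 0.66 for Cdh15, -0.09 for Myog and -0.50 for Chrna1). Over all 16 arrays r is 0.56, 0.84, 0.88 and 0.81 in that order. Only the relation of Cdh15 passed (adjusted permutation p = 0.00728, against 0.111 for Myod1, 0.111 for Myog and 0.131 for Chrna1).

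Myf6 and Ncam1 went with the matrix markers. For Myf6 and the matrix mean r was 0.77 (permutation p = 0.0009, adjusted 0.0126; rho = 0.53, adjusted 0.252) and for Ncam1 1379389_at it was 0.72 (permutation p = 0.00269, adjusted 0.0251; rho = 0.34, adjusted 0.453). Without the 2 farthest arrays, HCR sedentary 2 among them, the values were 0.40 and 0.21, so both relations rested on those arrays. The matrix mean was -0.74 to -0.33 in HCR trained, -0.35 to 1.67 in HCR sedentary, -0.27 to 1.13 in LCR trained and -0.64 to 0.27 in LCR sedentary rats. Dcn, decorin, was the 1 of these 10 markers that passed between HCR trained and LCR trained rats, at -0.66 (adjusted p = 0.0391), and 0 of the 10 passed in 8 of the 16 fits that left out 1 array (HCR trained 2 or 4, HCR sedentary 1 or 3, or any LCR trained array), with quantile normalization, with replicate numbers fitted as a block, and with the 3' bias of beta-actin or GAPDH as a covariate.

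The 7 genes make 21 pairs, which were examined after the values had been seen. Myf6 and Ncam1 1379389_at gave r = 0.90 (permutation p = 1e-05, which is the floor of 100000 permutations, adjusted 0.00021; rho = 0.71, adjusted 0.0185). Their r was 0.76 without the 2 farthest arrays, HCR sedentary 2 and LCR trained 2, 0.88 without HCR trained 3 and 0.92 on deviations from the group means. Myog with Ncam1 1379389_at gave r = 0.75 (permutation p = 0.00026, adjusted 0.00273; rho = 0.71, adjusted 0.0185), and 0.79 without the 2 farthest arrays. For this pair r was 0.54 over the 13 arrays left when HCR trained 3 was omitted too. Myog with Myf6 gave r = 0.69 (permutation p = 0.00186, adjusted 0.0130; rho = 0.78, adjusted 0.0162), and 0.70 without the 2 farthest arrays. These 3 pairs were also the ones whose rho passed.

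Of the other pairs, Myog with Chrna1 gave r = 0.84 (permutation p = 0.00518, adjusted 0.0218; rho = 0.44, adjusted 0.211), but 0.25 without the 2 farthest arrays and 0.39 without HCR trained 3. Myog with Cdh15 gave r = -0.77 (permutation p = 0.00306, adjusted 0.0161; rho = -0.50, adjusted 0.177) and Cdh15 with Chrna1 gave r = -0.69 (permutation p = 0.0108, adjusted 0.0378; rho = -0.43, adjusted 0.211), and they were -0.26 and -0.22 without the 2 farthest arrays. Myod1 and Myog, the factors known from fast and slow muscle, gave r = -0.65 (permutation p = 0.0430, adjusted 0.0993; rho = -0.12, adjusted 0.697), and 0.14 without HCR trained 3.

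**Figure D4:**
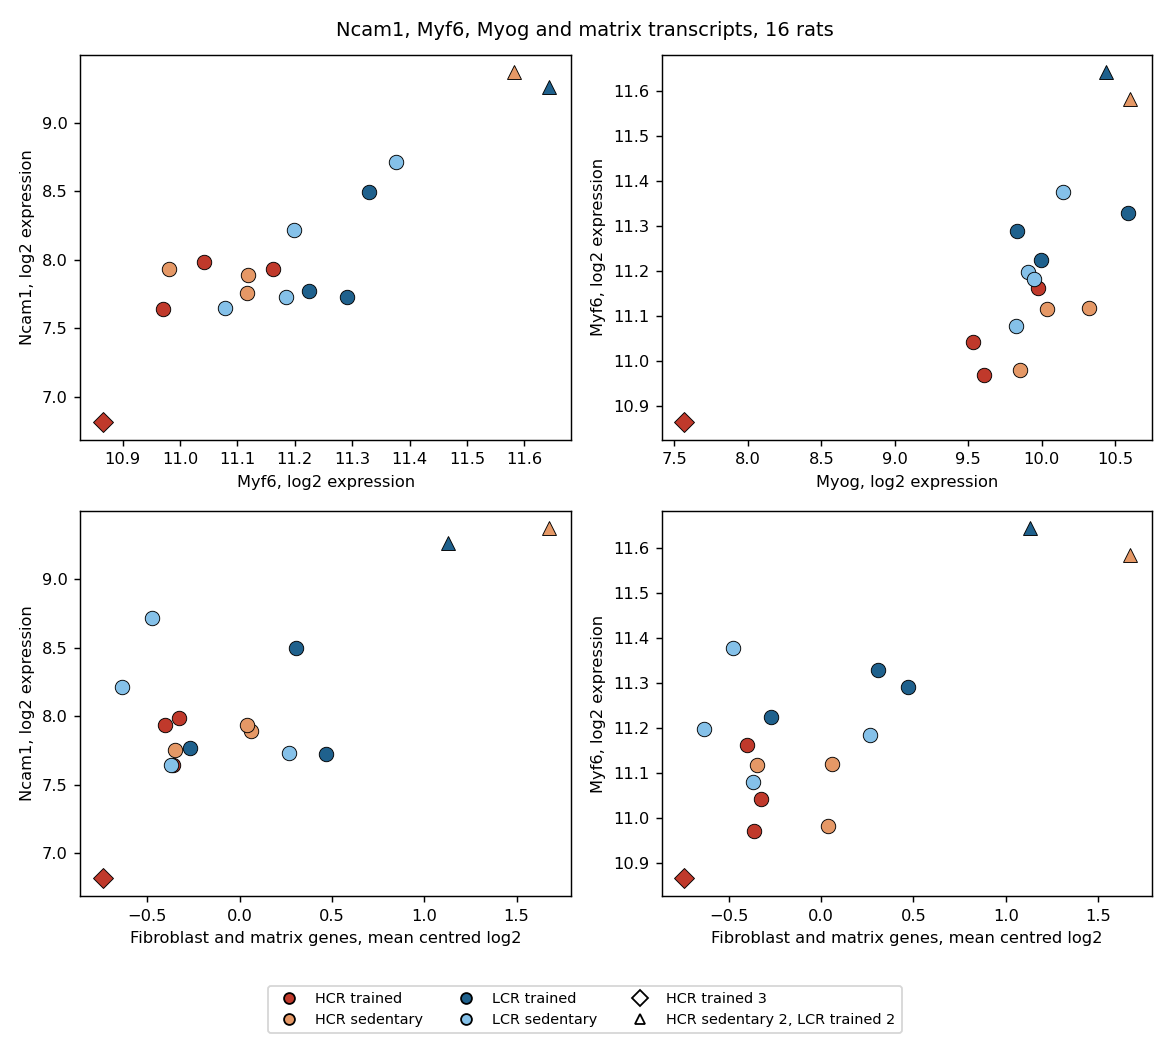
Log2 expression of Ncam1 1379389_at against Myf6 and of Myf6 against Myog (top), and of Ncam1 1379389_at and Myf6 against the mean of the fibroblast and matrix genes (bottom), each point 1 rat. Triangles are HCR sedentary 2 and LCR trained 2, at matrix means of 1.67 and 1.13, and the diamond is HCR trained 3; in the top panels r is 0.76 and 0.70 without the triangles, and 0.63 and 0.62 over the 13 round points.

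Among 14236 probe sets of other genes, those most like each member over the 16 arrays were as follows, by Pearson's r and as a description, since all points share the same arrays. Cdh15 was nearest to Trim27 (r = 0.94), Rab5if (0.94) and Slc35c1 (0.94), and the values without HCR trained 3 were 0.88, 0.90 and 0.92. Myf6 was nearest to Gtf2a1 (0.91), Sfrp4 (0.90) and Ncam1 (0.90), and Ncam1 1379389_at to Myf6 (0.90), Usp28 (0.89) and Stau2 (0.89). Myog was nearest to Lims1 (0.94), Casq2 (0.93), the slow fibre calsequestrin, and Bex1 (0.93), and without HCR trained 3 these were 0.70, 0.58 and 0.56. Myod1 was nearest to Mybpc2 (0.84), the fast fibre myosin binding protein C, Mpp3 (0.84) and Mamstr (0.84), and these were 0.57, 0.52 and 0.56 without HCR trained 3. Chrna1 was nearest to Bex1 (0.90), Stmn1 (0.90) and Cryab (0.90), which were 0.62, 0.62 and 0.63 without HCR trained 3, and Met, which is dim, to Tead4 (0.89), Slc7a1 (0.89) and Card14 (0.88).

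Genes that act around the members were read from lists, and 0 of 16 measured satellite cell surface and niche genes passed limma's test in each of the 4 comparisons. At an unadjusted p under 0.05 there were 2 between HCR trained and LCR trained rats and 3 between HCR trained and HCR sedentary rats, beside 2566 and 2713 of all 14217 genes. The list's medians were -0.12 and -0.10, and -0.05 and -0.02 with HCR trained 3 and HCR sedentary 2 both left out. Without HCR trained 3, Tek, an angiopoietin receptor, passed between HCR trained and HCR sedentary rats at 0.36 (SE 0.07, adjusted p = 0.0450). In that fit 190 of all 31042 probe sets passed in that comparison, against 58 with all arrays. The largest difference between HCR trained and LCR trained rats was that of Fgfr1, a fibroblast growth factor receptor, at -0.46 (SE 0.15, adjusted p = 0.127). In the Notch pathway, which keeps satellite cells quiescent, 0 of 13 genes passed, with 2 and 1 at that unadjusted level and medians of -0.02 and 0.01, and the receptor Notch1 gave -0.53 (SE 0.15, adjusted p = 0.0881) between HCR trained and LCR trained rats. With HCR trained 3 and HCR sedentary 2 both left out, Hey2, a Notch target, passed there at 0.78 (SE 0.13, adjusted p = 0.0135). In that fit 1315 of all 31042 probe sets passed in this comparison, against 116 with all arrays. Of 16 cofactors and upstream regulators 0 passed, with 5 and 3 at the unadjusted level and medians of 0.07 and 0.04. Among them Eya1, a coactivator of homeobox factors upstream of the myogenic factors, gave 0.79 (SE 0.20, adjusted p = 0.0857) between HCR trained and HCR sedentary rats and 0.70 (SE 0.20, adjusted p = 0.0904) between HCR trained and LCR trained rats. Without HCR trained 3 the second was 0.47 (SE 0.14, adjusted p = 0.1005), and without both arrays the first was 0.44 (SE 0.13, adjusted p = 0.149). With both left out, Itgb1, Jag1 and Mef2d of these 3 lists passed between LCR trained and LCR sedentary rats, at 0.46, 0.39 and -0.31 (adjusted p = 0.0400, 0.0432 and 0.0432). Neither array is an LCR array, so these differences were those of the fit of all arrays, and only the estimate of the spread changed. In that fit 178 of all 31042 probe sets passed between the LCR groups, against 1 with all arrays.

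Downstream of the myogenic factors, 0 of 13 differentiation and fusion genes passed. Of these, 2 had an unadjusted p under 0.05 between HCR trained and LCR trained rats. The number was 4 between HCR trained and HCR sedentary rats. Of all 14217 genes, 2566 and 2713 had such a p in these comparisons, the background for each list that follows here. The list's medians were -0.04 and -0.19, or -0.10 and -0.03 with HCR trained 3 and HCR sedentary 2 both left out. Myh3, embryonic myosin heavy chain, averaged 9.69 ± 2.79 in HCR trained and 11.59 ± 0.81 in HCR sedentary rats (SD, n = 4 each), a difference of -1.90 (SE 1.04, adjusted p = 0.361). Myh3 read 5.53 on HCR trained 3 and 10.75 to 11.41 on the other HCR trained arrays, and without that array the difference was -0.51 (SE 0.61, adjusted p = 0.658). Mymk, the fusion protein myomaker, gave -0.89 (SE 0.40, adjusted p = 0.263) in the same comparison, where the HCR trained arrays read 4.99 to 5.33 and HCR sedentary 2 reached 7.89. Without HCR sedentary 2 the Mymk difference was -0.29 (SE 0.12, adjusted p = 0.334). Of 16 postsynaptic genes 0 passed, with 2 and 4 at the unadjusted level and medians of -0.03 and -0.04. The receptor's delta subunit, Chrnd, averaged 8.54 ± 1.46 in HCR trained and 9.78 ± 0.30 in HCR sedentary rats, a difference of -1.24 (SE 0.50, adjusted p = 0.214). Chrnd read 6.36 on HCR trained 3 and 9.13 to 9.39 on the other HCR trained arrays, and without that array the difference was -0.52 (SE 0.20, adjusted p = 0.166). The beta subunit, Chrnb1, averaged 8.23 in HCR trained and 7.85 in HCR sedentary rats, and the gamma subunit, Chrng, 6.10 and 6.51. Of the 16 postsynaptic genes 7 were higher and 9 lower in that comparison. Of 9 denervation-responsive genes 0 passed, with 2 and 4 at the unadjusted level and medians of -0.29 and -0.54, beside 0.05 and 0.02 over all genes. The mean of this list was -1.17 on HCR trained 3, 1.16 on HCR sedentary 2 and -0.44 to 0.78 on the other 14 arrays, and with those 2 left out the medians were -0.28 and -0.21. Gadd45a, a stress-induced gene, gave -1.12 (SE 0.45, adjusted p = 0.214) between HCR trained and HCR sedentary rats and -0.68 (SE 0.48, adjusted p = 0.486) without those 2 arrays. Of 12 proliferation genes, 6 of them under the dim level, 0 passed, with 1 and 0 at the unadjusted level and medians of -0.04 and -0.11.

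Of the 11 fast fibre genes 6 were higher and 5 lower in HCR trained than in LCR trained rats (median 0.10). Over HCR sedentary rats 8 were higher and 3 lower (median 0.15). Among the fibre genes 1 passed in the fit of all arrays. Myh4, the fast IIB myosin heavy chain, rose by 5.09 (SE 0.87, adjusted p = 0.0475) in HCR trained over HCR sedentary rats and by 5.48 (SE 0.87, adjusted p = 0.0281) over LCR trained rats. It read 11.08, 8.43, 13.57 and 9.98 in HCR trained rats, against 4.76, 8.03, 4.88 and 5.05 in HCR sedentary and 5.53, 5.80, 4.84 and 4.95 in LCR trained rats. The 4 HCR trained arrays were the highest of these 12 in Myh4, as they were in Cdh15. Of the 16 fits that left out 1 array, 5 had no fast fibre gene past the test over LCR trained rats (HCR trained 4 or any LCR trained array left out). In 11 there was none over HCR sedentary rats, all but those without HCR trained 2 or 3, HCR sedentary 2 or 4, or LCR sedentary 2. With HCR sedentary 2 and HCR trained 3 both left out, Pvalb and Actn3 passed too, at 3.08 and 3.04 over LCR trained rats and at 3.23 and 4.06 over HCR sedentary rats (adjusted p at most 0.0426). In that fit 1315 of all 31042 probe sets passed over LCR trained rats and 29 over HCR sedentary rats. With the replicate block 0 passed in both comparisons, and with quantile normalization or the 8 arrays alone 0 passed over HCR sedentary rats. Of the markers of other cells, the 8 Schwann cell genes had means of 0.10 to 0.19 in HCR trained, -0.15 to 0.14 in HCR sedentary, -0.34 to -0.08 in LCR trained and -0.08 to 0.15 in LCR sedentary rats. Of these 8 genes 0 passed, with 4 at an unadjusted p under 0.05 between HCR trained and LCR trained rats, beside 2566 of 14217 genes, and 0 between HCR trained and HCR sedentary rats, beside 2713. The part of fibre type, nerve and matrix cells in the members' values was not tested.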

How the data were processed

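Each of 16 Affymetrix rat arrays held biotin-labelled soleus RNA of 1 rat, per the labels. What the authors deposited is 1 log2 value per probe set and array. The submitters' processing notes name RMA (background correction, quantile normalization and a summary of each probe set) and limma, without versions in the sources used here. RMA takes out any shift shared by the whole array, so a difference is one from the bulk of transcripts. Whether all arrays were summarised together, and when they were scanned, is not given in the sources used here, so no batch was tested.

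After 57 control probe sets were left out, 31042 were tested, of which 20826 had 1 symbol, 436 several and 9780 none in the platform annotation, and 20758 were found by gene identifier in RefSeq's table for GRCr8, with 0 symbols changed. limma 3.58.1 in R 4.3.3 fitted 4 group means over 16 arrays, with 12 residual degrees of freedom, eBayes without a variance trend, and adjusted p-values by Benjamini-Hochberg for each comparison. The labels describe separate rats, so tests use the spread between animals, and precision is limited by the number of arrays. Correlations used Python 3.11.15, scipy 1.17.1 and two-sided tests with 100000 permutations. The plan named 9 genes for them and 7 could be measured. Beside the members, the text names genes of each list that passed and otherwise genes from the 3 largest differences of each list among those at or above the 40th percentile (5.61), each by its brightest probe set. The fit was tested on simulated data. Members and lists were chosen with earlier results of these data known, and the lists are no independent support. Alternatives left out arrays and changed the scaling, the weights, the variance model, the covariates and the block. Leaving arrays out of the values of list genes, and 3 arrays out of the member pairs, was chosen after seeing the data.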

Additional observations from a re-analysis of the deposited data

Results flagged for a closer look

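In 36 sets of 4 arrays, 9 probe sets in each of 4 groups, the highest or lowest array was checked for its gap to the nearest other array relative to the range of the group. Chance marks about 1 set in 20, and 2 sets were marked. For Ncam1 1379389_at in HCR sedentary rats, HCR sedentary 2 read 9.37 and the next array 7.93. On the same array the matrix markers had a mean of 1.67, the macrophage and leukocyte markers 1.20, the proliferation genes 0.52 and the 8 Schwann cell markers -0.15, and their part in the value was not tested. For Ncam1 1377368_at in LCR sedentary rats, LCR sedentary 2 read 5.77 and the next array from the bottom 6.04, a probe set close to the dim level of 5.61. The array HCR trained 3 was not marked for any member. For Myog, where it came closest, the gap was 0.814 of the range of the group, under the critical value for 4 arrays.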

How the results depend on the processing

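Under 26 alternative settings the 63 member differences (9 probe sets in 7 comparisons) gave 1604 values, of which 1511 kept direction and call, 90 turned in direction without a call on either side (none from a main difference over 0.38, that of Myod1 between trained rats), and 3 gained a call. The count of members passing was 0 in all 7 comparisons and settings except with array weights, where it was 1 between HCR trained and LCR trained rats, 1 between HCR trained and HCR sedentary rats and 1 for training averaged over lines, each time Cdh15 (the last at 0.32, adjusted p = 0.0429). With array weights 3525, 1304 and 1148 of all 31042 probe sets passed in these comparisons. Leaving out each array in turn gave 0 to 0. With a replicate block the count was 0 in all 7. The labels do not say whether the replicate numbers pair the rats. Deviations of arrays of the same number correlated between -0.483 and 0.573, and 7 of 16 arrays correlated best with their own number. No chance level was computed for these values, so they do not decide whether the numbers pair rats. Chrna1 with the fast fibre mean had r = 0.0928 without the 2 farthest arrays, against -0.7407 with all. Counts over all probe sets moved far more: 116 between HCR trained and LCR trained rats became 5 with the beta-actin covariate, 25 with the replicate block, 3525 with array weights, and 9 (without LCR trained 1 or LCR trained 3) to 651 (without HCR sedentary 2) with 1 array left out. The 58 for training in HCR became 1 with that covariate, 2 with the block, 1304 with weights, and 1 (without HCR trained 4, HCR sedentary 1 or HCR sedentary 3) to 454 (without HCR sedentary 4) with 1 array left out. This count was 255 with each array centred on its median, 3 with quantile normalization and 0 when the 8 arrays compared were fitted alone. Without HCR trained 2, the array with the highest 3' bias, the 116 became 21 and the 58 became 3. Over all settings the 27 for line, averaged over training, ran from 15 (without LCR trained 1) to 338, the 0 of the interaction to 233, the 2 for training averaged over lines from 1 to 1148, the 1 for training in LCR from 0 to 321 and the 3 between sedentary rats from 1 to 10. The causes were not tested. With 4 rats per group the 95% interval of Myog between HCR trained and LCR trained rats still ran from -1.87 to -0.22, and that of Myod1 from -1.05 to 1.82.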
